A study of Homo sapiens with 11 samples.

Results

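Autophagy and lysosome genes were studied in Caki1-SR cells, a sunitinib-resistant subline of the human clear cell renal cell carcinoma line Caki-1, treated with a 4-drug combination (ODC) or kept as control (CTRL). The set held 39 genes, chosen by symbol from a list of core autophagy machinery (27 genes), cargo receptors (5), lysosomal genes (4), TFEB, and TRIM16 with its near copy TRIM16L, and all 39 were among the 26485 symbols of the count tables. ODC contained the ruthenium-based agent Rapta-C at 2 µM, the EGFR kinase inhibitor erlotinib at 1 µM, the antidiabetic drug metformin at 1 µM and the plant sesquiterpene lactone parthenolide at 5 µM. All cells, controls included, came from 1 resistant line, given as clone 1 where the study describes the 24 h treatment, and the resistant cells were maintained in medium with 1 µM sunitinib. The control is called untreated in one place of the study and sham-treated in another. Cells were exposed for 24 h (3 CTRL and 3 ODC libraries) or for 2 h (2 CTRL and 3 ODC libraries).

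Macroautophagy encloses cytoplasmic material in a double membrane, the autophagosome, which fuses with the lysosome, where acid hydrolases degrade the content. The ULK1 kinase complex starts the process, the class III phosphatidylinositol 3-kinase complex marks the membrane, and ubiquitin-like conjugation attaches ATG8 proteins such as LC3 to it. Receptors such as p62 link cargo to these ATG8 proteins, and the transcription factor TFEB drives lysosomal and autophagy genes through a DNA element called CLEAR. The transcription factor NRF2 answers oxidative and electrophilic stress through antioxidant response elements, and SQSTM1 and TRIM16 are known as genes it can drive.

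The 24 h libraries held 17785229 to 20882856 counts each, and the 2 h libraries 25782895 to 31118349. The library names carry a different month for 24 h and 2 h without stating what it marks, and time and this month cannot be told apart. The labels do not say that replicates are separate cultures, and the p-values then measure only the spread between these libraries. In bulk RNA, fewer cells of a type and less RNA per cell cannot be told apart. Of 11 markers of renal epithelium or clear cell carcinoma, 8 passed 1 CPM (the count scaled to library size with TMM factors) in some library. VIM, PAX8, KRT8 and KRT18 were highest, and KRT19 and EPCAM passed it only in the library labelled CTRL 2 h replicate 1. CA9, PAX2 and CDH1 stayed below 1 CPM. At 24 h the summed level of these 11 markers was 4670 to 5446 CPM in CTRL and 3732 to 4630 CPM in ODC, most of it from VIM. Of the 6 tested, 5 were lower with ODC, of which KRT18, KRT8 and VIM at an unadjusted p under 0.05. PAX8 was the 1 that was higher, at 437, 654 and 498 CPM in CTRL and 568, 891 and 546 CPM in ODC. The 7 immune markers summed to 5.91 to 6.47 CPM in CTRL and 8.36 to 8.60 CPM in ODC at 24 h, most of it from CD68. CD68, which also encodes a lysosomal protein, ITGAM and CD14 were higher in every ODC library than in any control. ITGAM was at 0.096, 0.26 and 0.44 CPM in CTRL and at 0.74, 1.03 and 0.62 CPM in ODC. CD14 was at 0.048, 0.16 and 0.11 CPM in CTRL and at 0.30, 0.54 and 0.19 CPM in ODC. PTPRC, CD3E, CD2 and LYZ stayed at or near 0. The 6 fibroblast markers summed to 66.6 to 142 CPM in CTRL and 115 to 169 CPM in ODC at 24 h, and the 5 endothelial markers did not pass 1 CPM in any library. Whether these markers had a part in the results below was not tested.

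At 2 h, libraries of the same group differed in some genes. The library labelled CTRL 2 h replicate 1 had 971 counts of the collagen gene COL1A2 and 1081 of COL3A1, against at most 11 and 6 in any other library. It also had 73 counts of DCN, 65 of LUM, 48 of KRT19 and 100 of EPCAM, against at most 3, 4, 3 and 27 in any other. HMOX1, a stress-induced NRF2 target named here after its values were seen, was at 229 CPM in the library labelled CTRL 2 h replicate 2 against 21.9 CPM in the other control. It was at 329 and 104 CPM in the libraries labelled ODC 2 h replicates 1 and 3, and at only 17.9 CPM in the library labelled ODC 2 h replicate 2. HMOX1 therefore did not sort by label at 2 h. With 2 controls it cannot be told which of them is unusual, and the cause was not tested. At 24 h, all 3 ODC libraries (98.3, 49.7 and 489.8 CPM) lay above the 3 CTRL libraries (21.0, 16.7 and 40.6 CPM), with ODC replicate 3 the highest.

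The genes differed widely in level at 24 h. Levels between genes are given as RPKM, that is, CPM divided by the joined length in kb of all annotated exons of the gene. Annotated exons that these cells do not use lower the RPKM, so rankings between genes depend on this length. In CTRL at 24 h the highest were CTSD, encoding the lysosomal protease cathepsin D, at 96.5 ± 19.6 RPKM (SD, n = 3), SQSTM1, encoding the receptor p62, at 78.5 ± 6.57 RPKM, and LAMP1, a major lysosomal membrane protein, at 61.9 ± 3.74 RPKM. The ranges of CTSD and SQSTM1 over the libraries are drawn beside those of the other genes in the plot of levels per length. Among the core machinery, GABARAP was highest on this scale, at 36.2 ± 4.21 RPKM. Within the nucleation genes, mean levels ran from PIK3C3, the catalytic lipid kinase, at 1.85 RPKM to PIK3R4, its regulatory partner, at 15.6 RPKM. The lengths used for them differed, at 15154 bases for PIK3C3 and 5377 for PIK3R4. TFEB was lowest of the genes with counts, at 0.465 ± 0.0932 RPKM. ULK2, a kinase close to ULK1, and MAP1LC3A, one of the LC3 genes, had 0 counts in every 24 h library, where a count of 0 still allows 0.144 to 0.169 CPM. At 2 h their only counts were 1 and 3, both in the library labelled CTRL 2 h replicate 1, which also held the collagen counts given above. The remaining 37 genes passed the filter on low counts and were tested at both times.

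**Figure D1:**
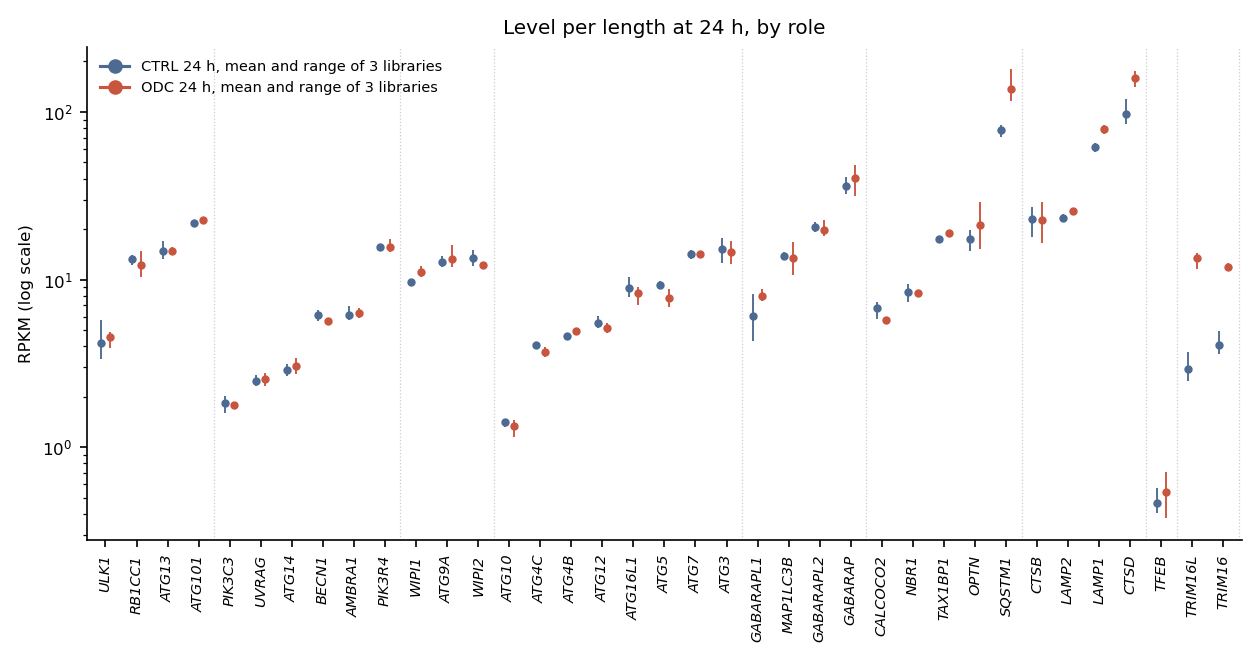
Level of the 37 genes with counts at 24 h in RPKM (y axis, log scale), grouped by role along the x axis from initiation to the TRIM16 pair. Points are means and lines the range of the 3 CTRL (blue) or 3 ODC (red) libraries. CTSD, SQSTM1 and LAMP1 are highest, TFEB is lowest, and TRIM16 and TRIM16L lie apart between the groups.

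At 24 h the response was carried by few of the genes. TRIM16L and TRIM16 rose with ODC, and CTSD, SQSTM1 and LAMP1 were higher at an unadjusted p under 0.05 without passing the adjustment over all genes. No gene of the set was lower at either threshold in this fit, although ATG5, CALCOCO2 and RB1CC1 were lower at an unadjusted p under 0.05 in some of the 19 alternatives, as given with the genes. By the quasi-likelihood test of edgeR, adjusted over all genes by Benjamini-Hochberg, 2 of the 37 genes were higher at an adjusted p under 0.05, where 0.165% of all 12689 genes tested were. At an unadjusted p under 0.05, 5 of 37 were higher and 0 lower, against 7.2% and 5.04% of all genes. Without TRIM16 and TRIM16L, which share reads, 3 of 35 were higher, near the share of all genes, and 0 passed the adjusted threshold. The groups did not overlap, with ODC above CTRL, for 9 of 37 genes and with ODC below CTRL for 1, against 9.42% and 8.51% of all genes. Without the TRIM16 pair these counts were 7 and 1 of 35. The median log2 fold change was 0.028 over the 37 genes, 0.0063 without the TRIM16 pair and 0.00089 over all genes tested.

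The core machinery of autophagosome formation stayed close to the control at 24 h. Of its 25 tested genes, 12 were above and 13 below the control. Their median log2 fold change was -0.011, with none at an unadjusted p under 0.05 by the quasi-likelihood test or by DESeq2. Single core genes passed it in some alternatives, ATG5 and GABARAPL1 as given below, ULK1 without CTRL 24 h replicate 2 (log2 fold change 0.40, unadjusted p of 0.0247), and RB1CC1 and GABARAP without ODC 24 h replicate 3 (-0.30 and 0.31, unadjusted p of 0.0265 and 0.0457). Log2 fold changes ran from -0.13 to 0.11 for the 4 initiation genes (ULK1, ATG13, ATG101 and RB1CC1, the kinase complex) and from -0.12 to 0.089 for the 6 nucleation genes (PIK3C3, PIK3R4, BECN1, ATG14, UVRAG and AMBRA1). They ran from -0.13 to 0.20 for the 3 membrane genes (ATG9A, a lipid scramblase, and WIPI1 and WIPI2, which read the phosphoinositide mark). Among the 8 conjugation genes, 6 were lower and 2 higher, from -0.25 to 0.099.

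ATG5, part of the enzyme that attaches ATG8 proteins to the membrane, was the 1 gene with ODC below CTRL in every library. Its values were 55.6, 51.1 and 50.1 CPM in CTRL and 49.5, 38.8 and 44 CPM in ODC, a log2 fold change of -0.25 with a 95% interval of -0.51 to 0.022. The unadjusted p was 0.0668, and it was 0.0419 in the joint fit of all 11 libraries, 0.0174 with the replicate block described below and 0.0293 without ODC 24 h replicate 1. WIPI1 was at 33.9, 32.9 and 31.3 CPM in CTRL and at 35.3, 41.0 and 36.4 CPM in ODC (log2 fold change 0.20, unadjusted edgeR p of 0.10), so that the groups lay side by side without overlap. For ATG4B, the protease that primes ATG8 proteins, the groups likewise did not overlap, at 29.9 to 30.9 CPM in CTRL and 31.8 to 33.3 CPM in ODC, while the log2 fold change was 0.099. MAP1LC3B, whose protein LC3B is the usual marker of autophagosomes, was at 73.7, 66.7 and 67.2 CPM in CTRL and at 67.1, 53.3 and 84.0 CPM in ODC. The ODC libraries spread on both sides of the control, and its log2 fold change was -0.023 with an interval of -0.39 to 0.35. Of 2048 read-length windows of its transcript, 13.5% also occur in MAP1LC3B2, and a read from such a window cannot be assigned to a single gene. The ATG8 protein gene with the largest difference was GABARAPL1, at 22.7, 33.3 and 17.5 CPM in CTRL and 31.4, 30.2 and 35.7 CPM in ODC. There the groups overlapped, and the log2 fold change was 0.40 with an unadjusted p of 0.106. It ran from 0.21 to 0.69 with single libraries left out, and without CTRL 24 h replicate 2, the highest control, it was 0.69 with an unadjusted p of 0.00362.

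Of the 5 cargo receptors, SQSTM1 differed most. Its protein p62 binds ubiquitinated cargo and LC3 and also holds KEAP1, the inhibitor of NRF2. SQSTM1 (hg38, chr5:179806398-179838078, plus strand, protein-coding) was at 535, 629.5 and 609 CPM in CTRL and at 878, 885 and 1351 CPM in ODC. All ODC libraries lay above all controls, with ODC replicate 3 far above the other two. The log2 fold change was 0.81 (SE 0.18, 95% interval 0.40 to 1.22), a 1.76-fold level, with an unadjusted p of 0.00177 and an adjusted p of 0.128. Without ODC replicate 3 it was 0.58 with an unadjusted p of 0.000764, so the difference did not rest on that library. SQSTM1 overlaps MRNIP, which lies on the opposite strand and was counted at 2.49 to 11.8 CPM, far below it. TAX1BP1, a receptor for ubiquitinated cargo, was at 155 to 164 CPM in CTRL and 170 to 176 CPM in ODC, without overlap between groups (log2 fold change 0.12, unadjusted edgeR p of 0.181). CALCOCO2, encoding NDP52, a receptor for invading bacteria and damaged mitochondria, went the other way, with 60.7, 60.9 and 48.0 CPM in CTRL and 48.4, 47.5 and 47.5 CPM in ODC (log2 fold change -0.24, unadjusted edgeR p of 0.0685). Its unadjusted p was 0.0448 when scaled by library size only, 0.0362 with the replicate block and 0.0146 without CTRL 24 h replicate 3, its lowest control. NBR1 was at -0.027 and OPTN at 0.26 on the log2 scale, both with overlapping groups, and OPTN reached 0.45 with an unadjusted p of 0.0488 without ODC 24 h replicate 3. The median of the 5 was 0.12.

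Of the 4 lysosomal genes, CTSD and LAMP1 were higher at an unadjusted p under 0.05, LAMP2 and CTSB were not, and none passed the adjustment. CTSD (chr11:1752752-1764573, minus strand) was at 483, 679 and 488 CPM in CTRL and at 805, 1002 and 935 CPM in ODC, so that the lowest ODC library stood above the highest control. The log2 fold change was 0.73 (SE 0.16, interval 0.37 to 1.09), a 1.66-fold level, with an unadjusted p of 0.00155 and an adjusted p of 0.125. LAMP1 (chr13:113297239-113323672, plus strand) was at 333, 375 and 358 CPM in CTRL and at 424, 462 and 481 CPM in ODC, again without overlap. Its difference was smaller and tight, 0.36 (SE 0.094, interval 0.14 to 0.58), with an unadjusted p of 0.00501 and an adjusted p of 0.180. LAMP2, the partner membrane protein, was at 242, 262 and 235 CPM in CTRL and 265, 273 and 275 CPM in ODC, also without overlap (log2 fold change 0.14, interval -0.060 to 0.33). CTSB, encoding cathepsin B, was at 247, 286 and 190 CPM in CTRL and 240, 305 and 175 CPM in ODC, with a log2 fold change of -0.0078 and an interval of -0.51 to 0.50. CTSD, LAMP1 and SQSTM1 kept an unadjusted p under 0.05 in all 19 alternatives at 24 h. With adjacent library numbers taken as a replicate block, a pairing that the labels do not state, their adjusted p-values were 0.0110 for CTSD, 0.0296 for LAMP1 and 0.0225 for SQSTM1.

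**Figure D2:**
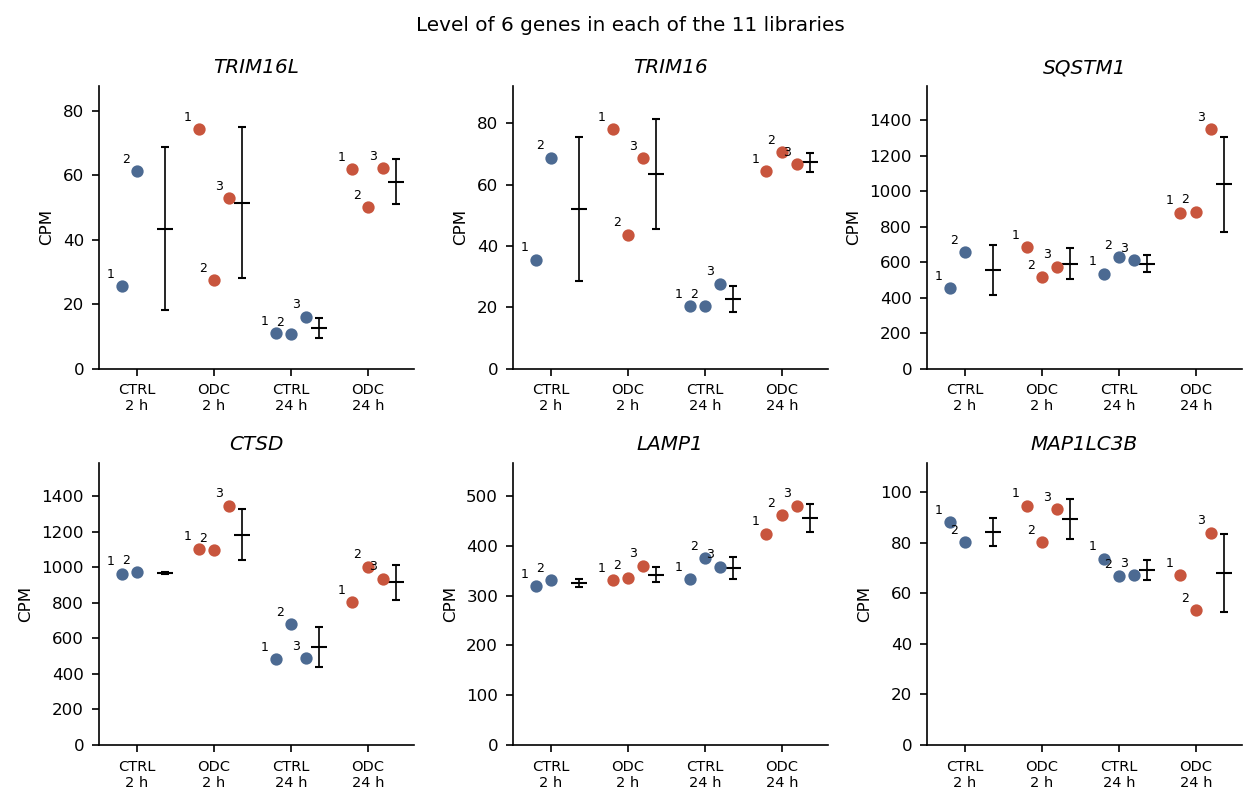
CPM (y axis, from 0) of TRIM16L, TRIM16, SQSTM1, CTSD, LAMP1 and MAP1LC3B in each library of the 4 groups (x axis). Points are libraries with their replicate number, blue for CTRL and red for ODC, and bars are the mean ± SD. At 24 h all ODC points lie above all CTRL points for the first 5 genes and overlap them for MAP1LC3B, and at 2 h the groups overlap for all but CTSD.

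Promoters were searched for 2 short motifs on both strands, the CLEAR core TCACGTG bound by TFEB and the antioxidant response element core TGACNNNGC. The windows, taken from RefSeq (GRCh38.p14), ran from 250 bases before to 50 after the start, and 43 of them covered 33 of the 39 genes, with none for RB1CC1, MAP1LC3A, UVRAG, LAMP2, CTSB and TRIM16L. The CLEAR core occurred in LAMP1, CTSD, ATG3 and ATG14, and in 3.71% of all 35116 promoters of the table. The antioxidant core occurred in ATG101, CALCOCO2, CTSD, LAMP1 and MAP1LC3B, and in 13.3% of all promoters, and these letters were not in the SQSTM1 and TRIM16 windows. The LAMP1 and CTSD stretches that hold the CLEAR core are shown because both genes were higher at 24 h, with the matches in capitals. LAMP1 had 8 matches at 6 places, since a palindromic site matches on both strands, and CTSD had 1. LAMP1 spans chr13:113297039-113297244 on the plus strand and CTSD chr11:1763928-1764002 on the minus strand, both printed 5′ to 3′. ATG3 and ATG14 also held the motif, with log2 fold changes of -0.053 and 0.089 and overlapping groups. A match is a sequence description only.
LAMP1: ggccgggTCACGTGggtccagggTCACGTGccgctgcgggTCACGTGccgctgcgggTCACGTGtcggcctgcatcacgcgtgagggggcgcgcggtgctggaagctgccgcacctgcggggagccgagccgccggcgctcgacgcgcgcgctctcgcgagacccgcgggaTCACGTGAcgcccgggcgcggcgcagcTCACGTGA
CTSD: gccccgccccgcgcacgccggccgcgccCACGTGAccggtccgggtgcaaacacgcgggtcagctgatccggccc

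TFEB itself (chr6:41683978-41736259, minus strand) was low in all libraries. It was at 3.85, 2.82 and 2.71 CPM in CTRL and 3.64, 4.76 and 2.55 CPM in ODC at 24 h, from 49 to 88 counts a library. The groups overlapped, and the log2 fold change was 0.22 with a wide interval, -0.43 to 0.86.

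The largest differences in the set belonged to TRIM16 and TRIM16L. TRIM16 encodes a ubiquitin ligase that gathers autophagy proteins on damaged lysosomes, and TRIM16L is annotated at its locus as a transcribed pseudogene and a long non-coding RNA. TRIM16L (chr17:18697998-18736118, plus strand) was at 11, 10.8 and 16.1 CPM in CTRL and at 62.0, 50.1 and 62.2 CPM in ODC at 24 h. TRIM16 (chr17:15627960-15684311, minus strand) was at 20.4, 20.3 and 27.7 CPM in CTRL and at 64.3, 70.6 and 66.7 CPM in ODC. For both, every ODC library was more than 2 times as high as any control. TRIM16L rose by 2.20 on the log2 scale (SE 0.18, interval 1.78 to 2.63, 4.61-fold, adjusted p = 0.00955) and TRIM16 by 1.56 (SE 0.14, interval 1.23 to 1.89, 2.95-fold, adjusted p = 0.0110). Per length, TRIM16L went from 2.91 ± 0.697 to 13.4 ± 1.6 RPKM and TRIM16 from 4.04 ± 0.755 to 11.9 ± 0.57 RPKM. The adjusted calls rested on single libraries in part. Leaving out CTRL 24 h replicate 1 gave adjusted p-values of 0.0846 and 0.0921, leaving out ODC 24 h replicate 1 gave 0.0624 and 0.0672, and leaving out CTRL 24 h replicate 2 gave 0.0458 and 0.0682, for TRIM16L and TRIM16.

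The 2 loci are near copies, and their counts are uncertain as separate genes. Of the 6 coding exons of TRIM16, 5 match the TRIM16L locus at 98.3% to 100% of bases. Over the annotated transcripts, 13.2% of the distinct 100-base windows of TRIM16 and 18.5% of those of TRIM16L occur in both, and a read from such a window cannot be assigned to one locus. A pair of 100-base stretches from the last coding exon is shown because it tells the loci apart at 3 bases, which are in capitals. They lie at chr17:15629099-15629198 on the minus strand for TRIM16 and chr17:18734877-18734976 on the plus strand for TRIM16L (hg38), printed 5′ to 3′. With the counts of both summed to 1 feature, the log2 fold change was 1.82 with an adjusted p of 0.00703.
TRIM16: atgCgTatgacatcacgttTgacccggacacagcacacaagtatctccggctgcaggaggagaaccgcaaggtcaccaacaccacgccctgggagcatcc
TRIM16L: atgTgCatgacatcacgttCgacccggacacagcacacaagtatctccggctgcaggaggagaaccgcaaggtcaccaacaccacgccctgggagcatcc

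**Figure D3:**
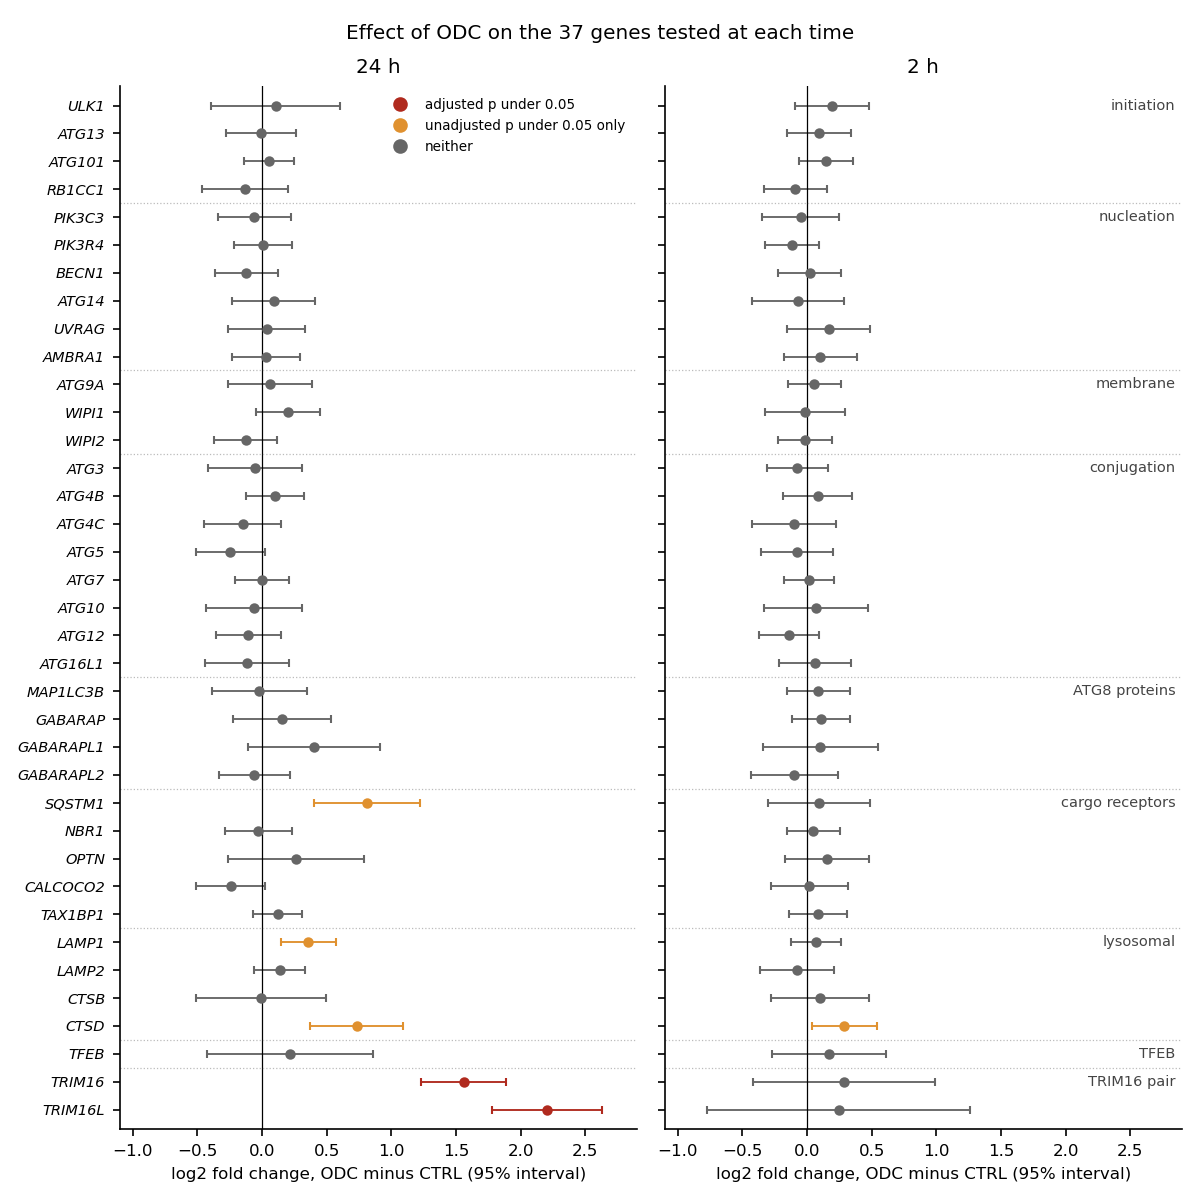
Log2 fold change of ODC over CTRL (x axis) with its 95% interval for the 37 genes tested, by role from top to bottom, at 24 h (left) and 2 h (right). Red marks an adjusted p under 0.05, orange an unadjusted p under 0.05 only. At 24 h TRIM16 and TRIM16L are red and SQSTM1, LAMP1 and CTSD orange, and at 2 h CTSD alone is orange.

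Other genes of the pathway were read from lists that share none of the 39 genes. Of 35 tested lysosomal hydrolases, 27 were higher and 8 lower at 24 h, 13 were higher at an unadjusted p under 0.05 and 0 lower, and the median log2 fold change was 0.29. Those of smallest p included GLA, alpha-galactosidase A (68.2 ± 7.85 CPM in CTRL and 104 ± 14.2 CPM in ODC, log2 fold change 0.61), GALNS, a sulfatase of glycosaminoglycan breakdown (0.60), and SMPD1, acid sphingomyelinase (0.62). None of the 35 passed the adjustment, with adjusted p-values of 0.131 for GLA, 0.168 for GALNS and 0.173 for SMPD1. The count at an unadjusted p under 0.05 ran from 7 to 19 over the alternatives, and that at an adjusted p under 0.05 from 0 to 11. The 13 of 35 stand beside the 7.2% of all genes given above, and no test compared the list with other genes.

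Among 15 lysosomal membrane proteins and cofactors, 13 lay above and 2 below the control (median 0.20), and 2 were higher at an unadjusted p under 0.05, where 7.2% of all genes were. These were PSAP, the precursor of the saposins (789 ± 97.6 CPM in CTRL and 1139 ± 130 CPM in ODC, log2 fold change 0.53, adjusted p = 0.156), and NPC1, the lysosomal cholesterol exporter (0.35). Of 16 subunits and accessory proteins of the V-ATPase, the proton pump of the lysosome, 13 were higher and 4 of these at an unadjusted p under 0.05. They were ATP6AP2 (0.34), ATP6V0A1 (0.36), ATP6AP1 (0.29) and ATP6V0C (0.27). Among 25 genes of nutrient control, 18 were higher, and the 3 at an unadjusted p under 0.05 were FLCN, a regulator of TFEB and TFE3 (0.41), SESN1, a stress-induced inhibitor of mTORC1 (0.66), and TFE3, a relative of TFEB (0.35). Read against the same 7.2%, these counts ran over the alternatives from 1 to 7 for the membrane list, from 2 to 7 for the V-ATPase and from 1 to 5 for nutrient control.

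Of 20 other autophagy machinery genes, 9 were above and 11 below the control (median -0.012), and 2 were higher at an unadjusted p under 0.05, TP53INP1 (0.93) and TP53INP2 (0.62), stress-related proteins that bind LC3. Those 2 of 20 stand near the 7.2% of all genes, and the count ran from 1 to 4 over the alternatives. Of 15 other selective receptors, 11 were higher and 4 lower and none passed either threshold, with 0 to 3 higher past the unadjusted one over the alternatives. Of 10 genes of the lysosomal damage response, 5 were higher and 5 lower and none passed either threshold. In this fit none of the 8 lists had a gene that was lower at an unadjusted p under 0.05, and over the alternatives each had from 0 to at most 2 such genes.

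Of 12 genes of the NRF2 list, 11 were higher and 1 lower at 24 h, where 6363 of all 12689 genes tested were higher. At an adjusted p under 0.05, 4 of the 12 rose, against 0.165% of all genes. These included FTL (2.04 on the log2 scale) and FTH1 (1.53), the ferritin chains, and NQO1 (1.54), a quinone reductase. The list was chosen with earlier results of these data known, so the 4 of 12 are a description only. FTL was at 275, 265 and 327 CPM in CTRL and at 1034, 1304 and 1235 CPM in ODC, without overlap. The list's median was 0.58, but it was 0.30 without ODC 24 h replicate 3 and 0.76 without ODC 24 h replicate 2. GCLM and SLC7A11, genes of glutathione synthesis and cystine import that are named here after their values were seen, were above the controls in ODC 24 h replicate 3 alone. GCLM was at 45.4 to 62.5 CPM in CTRL and at 62.0, 42.8 and 118 CPM in ODC. SLC7A11 was at 75.4 to 87.8 CPM in CTRL and at 41.1, 30.3 and 197 CPM in ODC.

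**Figure D4:**
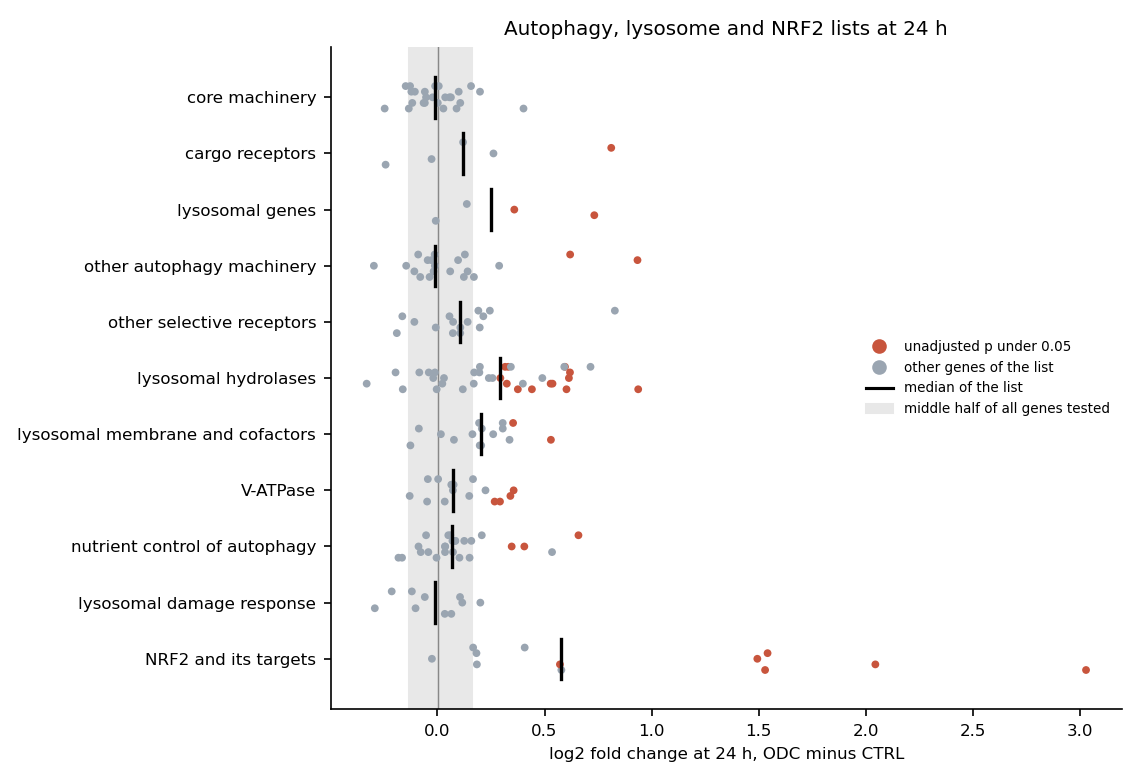
Log2 fold change of ODC over CTRL at 24 h (x axis) for the tested genes of 3 classes of the set and of 8 other lists (y axis). Each point is a gene, red at an unadjusted p under 0.05, the black bar is the list's median and the grey band spans the central quartiles of all genes tested. The medians are -0.011 for the core machinery, 0.29 for the lysosomal hydrolases and 0.58 for the NRF2 list.

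At 2 h, no gene of the set passed the adjustment, by the quasi-likelihood test, the likelihood ratio test or DESeq2, and the same held for all 13332 genes by the quasi-likelihood test (0%). Of the 37 genes, 25 lay above and 12 below the control, and their median log2 fold change was 0.072 against -0.0060 over all genes. At an unadjusted p under 0.05, 1 was higher (1.47% of all genes). This was CTSD, at 963 and 970.5 CPM in CTRL and 1104, 1094 and 1346 CPM in ODC (log2 fold change 0.29, SE 0.11, unadjusted edgeR p of 0.0299), with all ODC libraries above both controls. It lost that threshold without CTRL 2 h replicate 1 (0.28, unadjusted p of 0.0922), without CTRL 2 h replicate 2 (0.31, unadjusted p of 0.0749) and without ODC 2 h replicate 3 (0.19, unadjusted p of 0.068). The groups did not overlap for 2 genes with ODC higher, ATG101 and CTSD, and for 2 with ODC lower, PIK3R4 and ATG12, against 7.89% and 7.42% of all genes. ATG101, a subunit of the initiation complex, was at 58.0 and 62.7 CPM in CTRL and 65.3, 67.0 and 68.6 CPM in ODC, and ATG12, the ubiquitin-like partner of ATG5, at 53.4 and 52.3 CPM in CTRL and 51.4, 46.4 and 46.0 CPM in ODC.

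Apart from CTSD, the genes that led at 24 h did not sort by label at 2 h. TRIM16L was at 25.5 and 61.4 CPM in the libraries labelled CTRL and at 74.4, 27.4 and 52.9 CPM in those labelled ODC. TRIM16 was at 35.5 and 68.7 CPM in CTRL and at 78.1, 43.6 and 68.7 CPM in ODC. In both genes CTRL replicate 2 lay among the higher ODC libraries and ODC replicate 2 just above the lower control. HMOX1 was similar, except that its ODC replicate 2 lay just below the lower control. SQSTM1 was at 455 and 655 CPM in CTRL and 684, 515 and 575 CPM in ODC. As for TRIM16L and TRIM16, ODC replicate 1 was highest and CTRL replicate 1 lowest.

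The fold changes at 2 h accordingly depended on the library left out. As labelled they were 0.25 for TRIM16L (interval -0.77 to 1.26), 0.28 for TRIM16 (-0.42 to 0.99) and 0.092 for SQSTM1 (-0.30 to 0.49). Without CTRL 2 h replicate 2 they were 1.03 (unadjusted p of 0.0522), 0.85 (unadjusted p of 0.0176) and 0.39 (unadjusted p of 0.0414), and without CTRL 2 h replicate 1 they were -0.25, -0.12 and -0.15. In each case a single control library remained, assumed to vary like the ODC libraries. LAMP1 was at 319 and 331 CPM in CTRL and 330, 336 and 360 CPM in ODC, MAP1LC3B at 88.1 and 80.2 CPM against 94.6, 80.2 and 93.1 CPM, and TFEB at 7.24 and 6.92 CPM against 8.96, 6.44 and 8.50 CPM. Their groups overlapped and their log2 fold changes were 0.073, 0.086 and 0.17. Of the other lists, at most 1 gene in each was higher at an unadjusted p under 0.05 at 2 h.

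Whether ODC acted differently at the 2 times was tested as a contrast over all 11 libraries. No gene of the set passed an adjusted p under 0.05 by the quasi-likelihood test, the likelihood ratio test or DESeq2, where 0.015% of 13333 genes did by the first. At an unadjusted p under 0.05 the effect at 24 h was greater for 3 of 37 genes and smaller for 0, against 3.17% of all genes for greater. Without the TRIM16 pair it was greater for 1 of 35. TRIM16L differed by 1.95 on the log2 scale (SE 0.53, unadjusted p of 0.00342, adjusted p = 0.523), TRIM16 by 1.26 (SE 0.37, unadjusted p of 0.0052, adjusted p = 0.584) and SQSTM1 by 0.71 (SE 0.28, unadjusted p of 0.0281, adjusted p = 0.762). Without CTRL 2 h replicate 2 these were smaller, at 1.16, 0.69 and 0.41, with a single control library left at 2 h. No threshold is read from that fit for any of these genes. Among fits with at least 2 libraries in every group, the SQSTM1 difference lost an unadjusted p under 0.05 without ODC 2 h replicate 2. The same held without ODC 2 h replicate 3. The SQSTM1 difference also lost it without CTRL 24 h replicate 1 or ODC 24 h replicate 3. LAMP1 and CTSD differed by 0.27 (unadjusted p of 0.0523) and 0.43 (unadjusted p of 0.0653). Since time coincides with the month in the library names, a difference of effects by time cannot be told apart from one by whatever that month marks.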

How the data were processed

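RNA of Caki1-SR cells was sequenced as 11 libraries (TruSeq stranded mRNA kit, 100-base single-end reads per the study's methods). The authors aligned reads to hg38 with STAR (2.5.3a in the methods, 2.7.0f in the submitters' processing notes) and counted them with HTSeq 0.9.1. The deposited values are raw counts per gene symbol in 2 tables. Whether the counting used strand is not given in the sources used here. The members and gene lists were chosen with earlier results of these data known.

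Each time point was fitted alone with edgeR 4.0.16 in R 4.3.3, with its earlier quasi-likelihood method, TMM scaling and filterByExpr (minimum count 10, minimum total 15). This tested 12689 genes at 24 h and 13332 at 2 h, and the difference of effects was a contrast in a joint fit (13333 genes). All p-values are two-sided, and adjusted ones use Benjamini-Hochberg over every gene tested, at 0.05. A floor of 3 counts and all intervals cover counting error or the spread between libraries only. RPKM used the joined length of all exons annotated for a gene in GENCODE release 44.

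Full values are given for members with an unadjusted p under 0.05 in any comparison and for SQSTM1, MAP1LC3B, TFEB, LAMP1, TRIM16 and TRIM16L, and of each other list at most the 4 genes of smallest p at 24 h are named. Results for some single genes of these lists are not reported here. Other members, HMOX1, COL1A2, COL3A1, DCN, LUM, KRT19, EPCAM, ITGAM, CD14 and LYZ were named after their values were seen. No duplicate libraries were found among the replicates. Alternatives covered filter, scaling, test (with DESeq2 1.42.0), joint fit, pairing, the summed TRIM16 pair and each library left out. The labels give the groups no shared replicate number, and the deviations of libraries with adjacent numbers correlated at 0.243, 0.611 and 0.474 at 24 h. The scripts were tested on simulated data. Figures were drawn with matplotlib in Python.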

Additional observations from a re-analysis of the deposited data

How the results depend on the processing

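For the 39 genes no value that had passed a threshold changed sign under any alternative. The 2 genes at an adjusted p under 0.05 at 24 h became 4 with the likelihood ratio test or DESeq2, 3 in the joint fit with CTSD added, 5 with adjacent library numbers as a replicate block and 1 with TRIM16 and TRIM16L summed, and ranged from 0 to 2 when libraries were left out in turn. The 5 genes at an unadjusted p under 0.05 at 24 h became 7 with the replicate block (ATG5 and CALCOCO2 added, both lower), 6 in the joint fit (ATG5 added), 6 with library size only (CALCOCO2 added) and 4 with the pair summed, and ranged from 5 to 8 when libraries were left out, with 8 without ODC 24 h replicate 3. At 2 h the count of 1 became 0 in the joint fit and ranged from 0 to 2 without single libraries. For the difference of effects the count of 3 became 5 with the replicate block and ranged from 2 to 5 without single libraries. The cause of these shifts was not tested, except that summing removes a feature and leaving out a library leaves fewer samples. Of 702 values of single genes at 24 h, 39 changed sign, none of them past a threshold. The likelihood ratio test and DESeq2 called 401 and 378 genes in all at 24 h, and the block 686, against 24. The alternatives for the other lists were added after the data were seen. Over them the NRF2 list had 6 to 8 genes higher at an unadjusted p under 0.05 at 24 h and 0 to 8 at 2 h, with 8 without CTRL 2 h replicate 2. With 2 CTRL libraries at 2 h, of which 1 held collagen counts, the 2 h fold changes are the least certain.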
